A study of Rattus norvegicus with 4 samples.

Results

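Chemokine transcripts were examined in the CA3 area of the rat hippocampus 24 h after an intrahippocampal injection. The genes were the CC chemokines Ccl2, Ccl7, Ccl3 and Ccl4, the CXC chemokines Cxcl1, Cxcl10, Cxcl12 and Cxcl13, and the CX3C chemokine Cx3cl1, 9 of the 14217 genes with a value. They were taken by name, with earlier results of these data known. A probe set counted only if the platform annotation gave it that gene's symbol alone. This gave 11 of the 31099 probe sets, 3 for Cxcl12 and 1 for each other gene, and a gene took its value from the probe set brightest on average over the arrays.

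Each of the 4 groups of Sprague-Dawley rats was represented by 1 array. The injections were kainic acid with the peptide NAP (KA+NAP), kainic acid alone (KA), NAP alone, or phosphate-buffered saline (PBS) as vehicle, so every group shared the surgery. Kainic acid is an agonist of kainate-type glutamate receptors that overexcites and kills CA3 neurons. NAP is a short neuroprotective fragment of activity-dependent neuroprotective protein. The design text gives it as 10-13M for the combined injection, read here as 1e-13 M, and no dose for NAP alone. The labels give no age, sex, genotype or number of animals for any array. The labels speak of extracted hippocampi and the design text of the CA3 area. The CA3-enriched kainate receptor gene Grik4 had an intensity of 191 on the KA+NAP array, 365 on the KA array, 325 on the NAP array and 407 on the PBS array. With 1 array per group no difference between groups can be set against the spread between animals, and no test, standard error or p-value is given. Differences are on the log2(intensity + 10) scale, which understates those of dim genes, and 1 on that scale, a 2-fold difference, is used as a fixed rule of size. In tissue RNA, fewer cells of a type and less transcript per cell cannot be told apart.

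Chemokines are small secreted or membrane-tethered proteins that bind G protein-coupled receptors and direct the movement of leukocytes. Inflammatory members such as Ccl2 and Cxcl1 are scarce in healthy brain and are made by astrocytes, microglia, endothelium and infiltrating cells after injury, with NF-kappaB and AP-1 among their inducers and interferons as the main inducers of Cxcl10. Homeostatic members such as Cxcl12 and Cx3cl1 are made constitutively, and Cx3cl1 passes from neurons to microglia. Intensities of different probe sets cannot be compared, so each gene is described against itself across arrays.

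The promoter sequences below, from RefSeq on the GRCr8 build, are shown because Ccl7, Cxcl1 and Cxcl10 were brighter on both arrays with kainic acid and Cxcl12, Cxcl13 and Cx3cl1 were dimmer there. Of the 9 genes 6 were matched by symbol, and Ccl2, Ccl3 and Ccl4 were not. Each window covers 250 bases before to 50 bases after the annotated start, written 5′ to 3′ on the strand of the gene. The windows are chr10:67513845-67514144 on the plus strand for Ccl7, chr14:17479272-17479571 on the minus strand for Cxcl1, chr14:15988816-15989115 on the plus strand for Cxcl10, chr4:152060531-152060830 on the plus strand for Cxcl12, chr14:13917871-13918170 on the minus strand for Cxcl13 and chr19:10242771-10243070 on the minus strand for Cx3cl1. Capitals mark matches on either strand to the kappaB consensus, to the AP-1 motif TGANTCA or to the core of the interferon-stimulated response element (ISRE), searched as GAAA and GAAA with any 2 bases between them.
Ccl7: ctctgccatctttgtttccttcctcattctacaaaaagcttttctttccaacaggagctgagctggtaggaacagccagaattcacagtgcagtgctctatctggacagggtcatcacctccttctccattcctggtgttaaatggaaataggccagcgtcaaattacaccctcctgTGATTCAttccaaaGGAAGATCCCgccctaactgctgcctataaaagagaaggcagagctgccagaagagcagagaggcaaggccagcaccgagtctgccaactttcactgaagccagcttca
Cxcl1: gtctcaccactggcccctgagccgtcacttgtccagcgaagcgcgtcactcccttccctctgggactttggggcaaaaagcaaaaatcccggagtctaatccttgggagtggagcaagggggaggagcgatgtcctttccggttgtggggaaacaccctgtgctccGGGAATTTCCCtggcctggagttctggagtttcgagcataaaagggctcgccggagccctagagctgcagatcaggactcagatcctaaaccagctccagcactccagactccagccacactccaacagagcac
Cxcl10: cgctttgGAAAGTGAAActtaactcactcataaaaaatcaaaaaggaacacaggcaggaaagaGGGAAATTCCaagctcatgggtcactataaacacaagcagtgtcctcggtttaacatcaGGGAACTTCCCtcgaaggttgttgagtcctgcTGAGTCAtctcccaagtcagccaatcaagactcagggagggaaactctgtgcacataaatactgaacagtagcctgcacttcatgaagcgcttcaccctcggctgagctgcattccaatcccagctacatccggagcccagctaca
Cxcl12: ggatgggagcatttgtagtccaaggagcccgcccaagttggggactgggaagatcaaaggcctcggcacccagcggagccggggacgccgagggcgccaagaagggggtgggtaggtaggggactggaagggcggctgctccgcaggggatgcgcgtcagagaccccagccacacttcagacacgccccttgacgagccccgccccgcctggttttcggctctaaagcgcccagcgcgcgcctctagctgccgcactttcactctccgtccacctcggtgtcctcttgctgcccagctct
Cxcl13: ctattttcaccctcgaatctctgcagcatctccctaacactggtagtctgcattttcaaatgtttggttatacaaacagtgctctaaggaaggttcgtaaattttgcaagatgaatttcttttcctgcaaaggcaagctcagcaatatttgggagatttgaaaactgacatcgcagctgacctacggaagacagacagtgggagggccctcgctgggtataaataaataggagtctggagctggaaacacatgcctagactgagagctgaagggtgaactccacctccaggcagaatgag
Cx3cl1: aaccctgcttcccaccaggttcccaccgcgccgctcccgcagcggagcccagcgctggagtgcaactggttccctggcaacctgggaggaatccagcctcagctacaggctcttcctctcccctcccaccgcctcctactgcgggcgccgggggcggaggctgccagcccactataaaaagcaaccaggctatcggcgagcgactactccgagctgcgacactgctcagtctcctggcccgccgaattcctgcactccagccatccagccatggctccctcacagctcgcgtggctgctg
The Ccl7 window held an AP-1 match from base -73 to -67 and a kappaB match from -59 to -50, counted from the start. The Cxcl1 window held GGGAATTTCC from -84 to -75, and the kappaB match on the other strand overlapped it in all but 1 base. The Cxcl10 window held kappaB matches beginning at -187 and -128, the second overlapped by a match at -127, an AP-1 match at -96 and an ISRE core match at -243. The Cxcl12, Cxcl13 and Cx3cl1 windows held none of these letters. Among the 33469 windows of this length in the table, 7.51% held a kappaB match, 7.33% an AP-1 match and 3.92% an ISRE core match. A match describes these letters and is not evidence that a factor bound there.

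Kainic acid alone was compared with PBS, and KA+NAP with NAP, 2 comparisons that share no array. In KA minus PBS, Ccl2, Ccl7, Cxcl1 and Ccl3, 4 of the 9, reached 2-fold upwards and the 2 genes Cxcl12 and Cxcl13 reached it downwards. Of the 9489 genes past an intensity filter, 4.91% reached 2-fold upwards and 2.39% downwards, and over all 14217 genes the shares were 5.31% and 3.14%. In KA+NAP minus NAP, the same 4 genes were 2-fold or more higher, against 5.66% of genes past the filter and 6.34% of all genes. The same 2 were 2-fold or more lower, against 2.41% and 3.05%. The median difference of the 9 genes was 0.81 in KA minus PBS and 0.86 in KA+NAP minus NAP, where the medians over all genes were 0.0017 and 0.023. The 9 were chosen with earlier results of these data known, so neither the counts nor the medians test them against the background. For 6 genes both arrays with kainic acid lay above both arrays without it and for the other 3 both lay below, patterns that 32.3% and 28.7% of genes past the filter and 28.2% and 25.3% of all genes also showed, so the lack of overlap by itself sets none of the 9 apart. The filter required a mean intensity above 62.75, and 7 of the 9 passed, with Ccl4 and Cxcl10 below it. Ccl7, Ccl3 and Cxcl1 exceeded it only through their intensities on the arrays with kainic acid, and Cxcl13 only through the NAP array, so ranks are given over all 14217 genes.

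**Figure D1:**
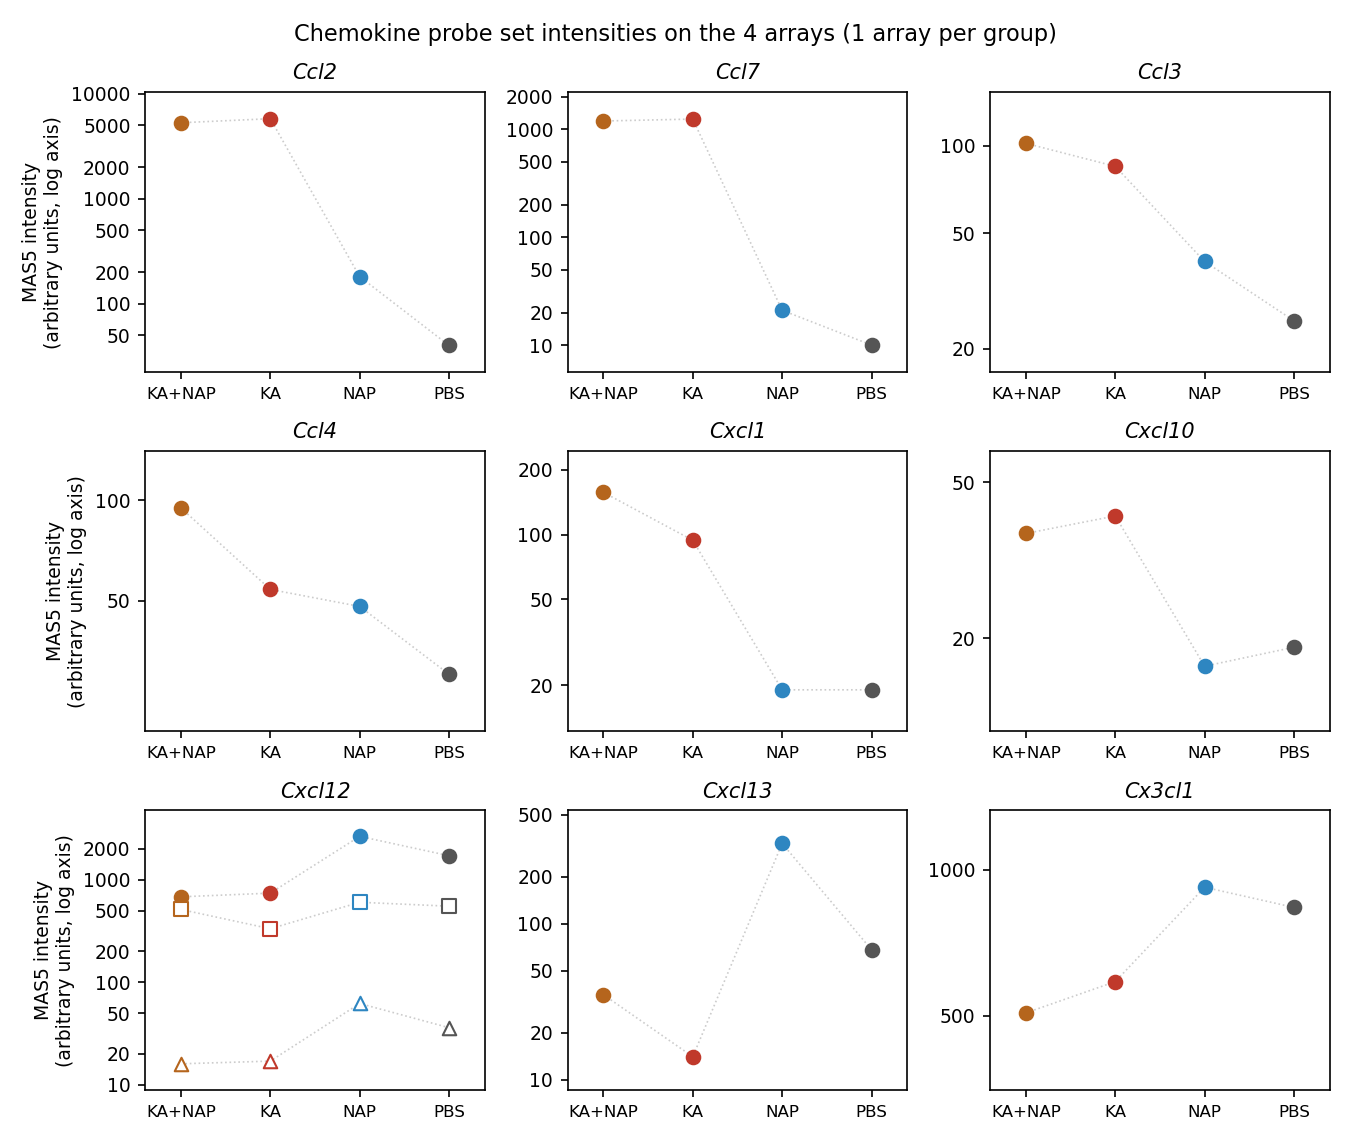
MAS5 intensity (arbitrary units, log axis, a separate scale per panel) of each chemokine on the KA+NAP, KA, NAP and PBS arrays, with 1 point per array and probe set. Filled circles are the brightest probe set, open squares and triangles the other probe sets of Cxcl12, and dotted lines join the points of a probe set. Ccl2 stood at 5291 and 5786 on the arrays with kainic acid and at 181 and 40 without it, while Cxcl13 was brightest on the NAP array.

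The monocyte attractants had the largest differences of the 9 in both comparisons of kainic acid. Ccl2, the principal ligand of the monocyte receptor Ccr2, had intensities of 5291 on the KA+NAP array, 5786 on the KA array, 181 on the NAP array and 40 on the PBS array. Both arrays with kainic acid were high and close to each other, and the NAP array lay between them and the PBS array. The difference was 6.86 in KA minus PBS, the highest of the 14217 genes, and 4.79 in KA+NAP minus NAP, the third highest. As plain intensity ratios these are 144.7-fold and 29.2-fold. The kainic acid difference was thus 2.06 smaller on the log2 scale beside NAP, with 1.93 of this from the brighter NAP array and 0.13 from the dimmer KA+NAP array. Ccl7, a second Ccr2 ligand that lies next to Ccl2 on chromosome 10, had intensities of 1189 with KA+NAP, 1239 with KA, 21 with NAP and 10 with PBS. Its differences were 5.96 in KA minus PBS, rank 2 of the 14217 genes, and 5.27 in KA+NAP minus NAP, the highest. Its PBS and NAP intensities lie near the pseudocount, so both sizes depend on that setting. The difference in KA minus PBS was 6.82 with a pseudocount of 1 and 4.43 with 50. In KA+NAP minus NAP it was 5.76 and 4.13, and with 50 it lay below the 4.53 of Ccl2.

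Values of neighbouring genes in the chemokine clusters are given for their position. Ccl11 (eotaxin), the gene after Ccl7 on chromosome 10 and chosen here for that position, was at 1, 1, 2 and 1 on the KA+NAP, KA, NAP and PBS arrays. A probe set this dim on every array may measure nothing. Cxcl2, a neutrophil attractant beside Cxcl1 on chromosome 14, was at 33 with KA+NAP, 21 with KA, 24 with NAP and 17 with PBS. Cxcl3, a close relative in the same cluster, was at 34, 16, 25 and 16 on the same arrays. Neither reached 2-fold in any of the 4 comparisons, and no detection calls were used to say whether these dim probe sets measured their transcripts.

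Cxcl1, which attracts neutrophils through Cxcr2, had intensities of 157 with KA+NAP, 94 with KA, 19 with NAP and 19 with PBS. The arrays without kainic acid were equal and both arrays with it were higher, the KA+NAP array most. The difference was 1.84 in KA minus PBS and 2.53 in KA+NAP minus NAP. Ccl3 (MIP-1 alpha), a ligand of Ccr1 made chiefly by microglia and macrophages, had intensities of 102 with KA+NAP, 85 with KA, 40 with NAP and 25 with PBS. Its differences were 1.44 in KA minus PBS and 1.16 in KA+NAP minus NAP, and both fell short of 2-fold (0.85 and 0.76) with a pseudocount of 50. Ccl4 (MIP-1 beta), a macrophage chemokine next to Ccl3 on chromosome 10, had 95 with KA+NAP, 54 with KA, 48 with NAP and 30 with PBS. Its KA and NAP arrays were nearly level, and its differences of 0.68 in KA minus PBS and 0.86 in KA+NAP minus NAP did not reach 2-fold.

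Cxcl10, an interferon-induced ligand of Cxcr3 on T cells, was dim on all arrays, with 37 on the KA+NAP array, 41 on the KA array, 17 on the NAP array and 19 on the PBS array. The arrays with kainic acid were the higher ones, by 0.81 in KA minus PBS and 0.80 in KA+NAP minus NAP, and by 1.07 and 1.08 with a pseudocount of 1. The interferon-induced Cxcl9 and Cxcl11 flank Cxcl10 on chromosome 14 and bind the same receptor. Cxcl9 lay the other way, at 13 with KA+NAP, 8 with KA, 30 with NAP and 22 with PBS, and Cxcl11 was at 84, 66, 62 and 49. Of 16 interferon pathway genes on the array, none reached 2-fold in KA minus PBS, with a median of -0.17. Of all genes, 5.31% reached it upwards and 3.14% downwards. In KA+NAP minus NAP, Irf9, a subunit of the interferon-activated ISGF3 complex, was higher by 1.62 and Usp18, an interferon-induced protease, by 1.14, and the list's median was 0.37. No other gene of the list reached 2-fold there, and 6.34% of all genes did so upwards. Part of this lay in the NAP array, which was below the PBS array for both genes, by -0.53 and -0.74. The list's median in NAP minus PBS was -0.26. In KA minus PBS, Irf9 differed by 0.92 and Usp18 by -0.50. The interferon genes Ifng and Ifnb1 had intensities of 0 to 2 on all arrays.

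Cxcl12, Cxcl13 and Cx3cl1 were the 3 of the 9 lower on both arrays with kainic acid. The brightest Cxcl12 probe set, for the ligand of Cxcr4 made by meninges, vessels and neurons, had 680 with KA+NAP, 739 with KA, 2644 with NAP and 1711 with PBS. Both arrays with kainic acid were low and the NAP array was the highest. The difference was -1.94 in KA+NAP minus NAP, rank 23 from the lowest of the 14217 genes, and -1.20 in KA minus PBS, rank 230. Of the other probe sets for Cxcl12, the dim one had 16, 17, 62 and 36 on the KA+NAP, KA, NAP and PBS arrays, with differences of -1.47 in KA+NAP minus NAP and -0.77 in KA minus PBS. The second brightest had 512, 332, 602 and 551, with differences of -0.23 and -0.71 in those comparisons. All 3 probe sets lay on the same side of 0, and only the brightest reached 2-fold in KA minus PBS.

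Cxcl13, which guides B cells through Cxcr5, had intensities of 35 with KA+NAP, 14 with KA, 327 with NAP and 68 with PBS. The NAP array stood far above the other 3, and the KA array was the lowest. The difference was -2.90 in KA+NAP minus NAP, the second lowest of the 14217 genes, and -1.70 in KA minus PBS. The first rests largely on the NAP array: against the PBS array the difference of the KA+NAP array was -0.79, short of 2-fold. Cx3cl1 (fractalkine), a membrane-bound ligand on neurons whose receptor Cx3cr1 marks microglia, had 507 with KA+NAP, 588 with KA, 920 with NAP and 836 with PBS. Both arrays with kainic acid were lower, with differences of -0.85 in KA+NAP minus NAP and -0.50 in KA minus PBS, within 2-fold. The summed intensity of 10 neuronal markers was 23759 on the KA+NAP array, 24541 on the KA array, 29669 on the NAP array and 32247 on the PBS array, and none was at 0. Of these 10, none was 2-fold apart in KA minus PBS and 2, Syt1 and Nefm, were lower in KA+NAP minus NAP. The downward shares of all genes were 3.14% and 3.05%. The part of these markers in the Cx3cl1 difference was not tested.

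**Figure D2:**
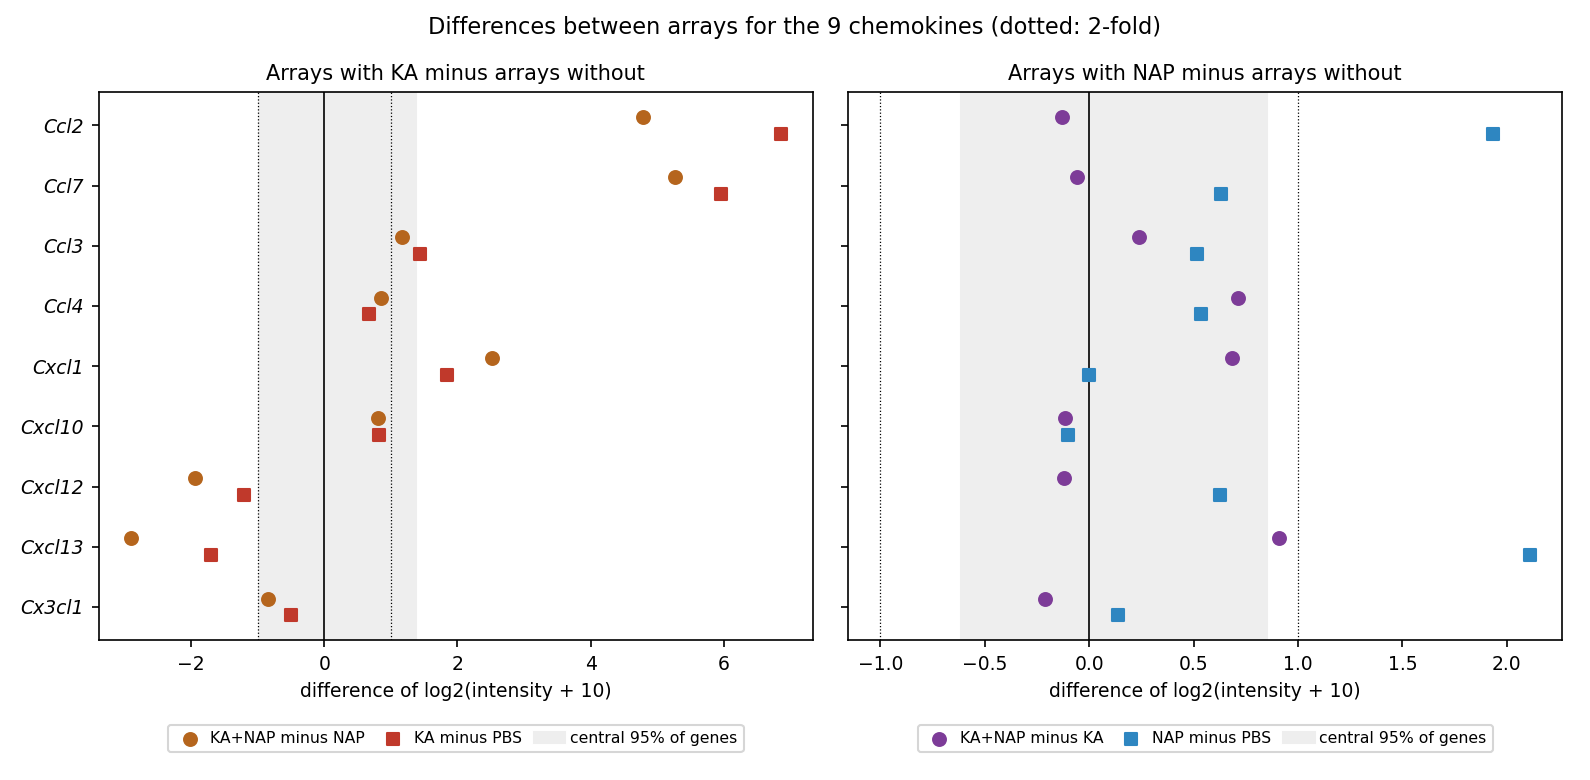
Differences of log2(intensity + 10) for the 9 chemokines, on the left KA+NAP minus NAP (circles) and KA minus PBS (squares), on the right KA+NAP minus KA (circles) and NAP minus PBS (squares). Each point is a difference of single arrays, dotted lines mark 2-fold, and the grey band spans the central 95% of the genes past the filter (the outer bounds of the pair of comparisons). Ccl2 and Ccl7 lie above 4 on the left, and on the right Ccl2 and Cxcl13 lie beyond 2-fold in NAP minus PBS.

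The peptide beside the toxin is described by KA+NAP minus KA. None of the 9 chemokines reached 2-fold. Of genes past the filter 1.52% were higher and 0.601% lower by that much, and of all genes 2.6% and 1.36%, so a count of 0 among 9 is near the background. Ccl2 differed by -0.13 (5291 on the KA+NAP array, 5786 on the KA array), Ccl7 by -0.059 and Cxcl10 by -0.12. The myeloid attractants Ccl4 and Cxcl1 were higher with KA+NAP by 0.71 and 0.68, Ccl3 by 0.24 and Cxcl13 by 0.91. The median of the 9 was -0.059, against 0.031 over all genes.

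The peptide without the toxin is described by NAP minus PBS. Of the 9, 2 reached 2-fold upwards, Cxcl13 by 2.11 (327 on the NAP array, 68 on the PBS array, rank 9 of the 14217 genes) and Ccl2 by 1.93 (181 and 40, rank 19), and none was lower. The background was 1.05% higher and 0.242% lower among genes past the filter, and 1.89% and 1.33% among all genes. Ccl7, Cxcl12, Ccl4 and Ccl3 were higher by 0.63, 0.62, 0.54 and 0.51, Cx3cl1 by 0.14, Cxcl1 by 0.00 and Cxcl10 differed by -0.10. The haemoglobin gene Hbb moved with these genes in this comparison, at 1549 on the KA+NAP array, 186 on the KA array, 1430 on the NAP array and 5 on the PBS array. The summed intensity of 3 red blood cell genes was 1604, 221, 1495 and 35 in that order of arrays, nearly all of it Hbb. The Hbb intensity of 5 on the PBS array lies below the pseudocount. Without Hbb the sum was 55, 35, 65 and 30, and the red cell anion exchanger gene Slc4a1 did not follow Hbb, at 21, 25, 45 and 27. The 14 meningeal, endothelial and mural markers summed to 3999 with KA+NAP, 2874 with KA, 4551 with NAP and 3141 with PBS, and 3 of them were at least 2-fold higher with NAP than with PBS. These were Ogn (osteoglycin, by 1.76), the collagen gene Col1a2 (1.72) and the endothelial von Willebrand factor gene Vwf (1.24), named because they make up that count. The median of the 14 in NAP minus PBS was 0.43, and 10 lay above 0. The others were the endothelial gene Pecam1 (-0.06), Acta2 (-0.16), Lum (-0.17) and Pdgfrb (-0.23). Of the 22 other chemokines with a value, 4 were at least 2-fold higher in NAP minus PBS and 0 lower. They were the platelet chemokine Pf4 (by 2.09), the lymphoid chemokine Ccl19 (1.49), Ccl6 (1.14) and Ccl21 (1.13), and only Pf4 passed the filter. Their list's median was 0.22, and 13 of the 22 lay above 0. None of these markers was listed at 0, and their part in the Cxcl13 and Ccl2 differences was not tested.

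Of 26 other chemokines listed, 22 had a value and 5 passed the filter. This list, like the chemokines above, was chosen with earlier results of these data known. In KA minus PBS, 0 reached 2-fold upwards and 1 downwards, Ccl19, at -1.62, where the shares of all genes were 5.31% and 3.14%. In KA+NAP minus NAP, 4 reached it upwards (Ccl17, Ccl20, Ccl24 and Cxcl16) and 2 downwards (Ccl19, at -1.15, and Ccl21), where the shares were 6.34% and 3.05%. Cxcl16, a membrane-bound chemokine and scavenger receptor, was the only one of these 6 past the filter, at 497 with KA+NAP, 216 with KA, 155 with NAP and 130 with PBS. The KA+NAP array was the highest, by 1.62 over NAP and 1.17 over KA, and KA lay 0.69 above PBS. Cxcl14, the brightest on this list, was within 2-fold in all 4 comparisons, at 822, 616, 625 and 672 on the same arrays, and Ccl27 was at 120, 170, 156 and 192. The list's median was 0.06 in KA minus PBS and 0.33 in KA+NAP minus NAP.

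Of 23 chemokine receptor genes listed, 17 had a value and 4 passed the filter. Ccr1, a receptor of Ccl3 and Ccl7 on monocytes and neutrophils, had 119 with KA+NAP, 69 with KA, 29 with NAP and 16 with PBS. Its arrays with kainic acid were the higher ones, by 1.73 in KA+NAP minus NAP and 1.60 in KA minus PBS, and it was the 1 receptor at least 2-fold higher in both. Ccr2, the receptor of Ccl2 and Ccl7, had 22, 12, 4 and 2 on the KA+NAP, KA, NAP and PBS arrays, with differences of 1.19 and 0.87 at intensities close to the pseudocount. Ccr6 was also at least 2-fold higher and Cxcr2 lower in KA+NAP minus NAP, with differences of 1.66 and -1.06 and no intensity above 28. That made 3 of the 17 higher and 1 lower, against 6.34% and 3.05% of all genes. In KA minus PBS 1 was higher and 0 lower, against 5.31% and 3.14%.

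Cxcr4, the Cxcl12 receptor, had 295 with KA+NAP, 169 with KA, 174 with NAP and 104 with PBS, with differences of 0.73 in KA+NAP minus NAP and 0.65 in KA minus PBS. The other Cxcl12 receptor, the scavenger Ackr3, differed by -0.15 and 0.03. Cx3cr1 differed by 0.53 and -0.12, the B-cell receptor Cxcr5 by -0.20 and -0.59 and the T-cell receptor Cxcr3 by -0.43 and -0.20. The erythroid and venular scavenger Ackr1, among the brightest receptors, differed by -0.13 and 0.18. The medians of the receptor list, -0.13 in KA+NAP minus NAP and -0.10 in KA minus PBS, lay below those over all genes.

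**Figure D3:**
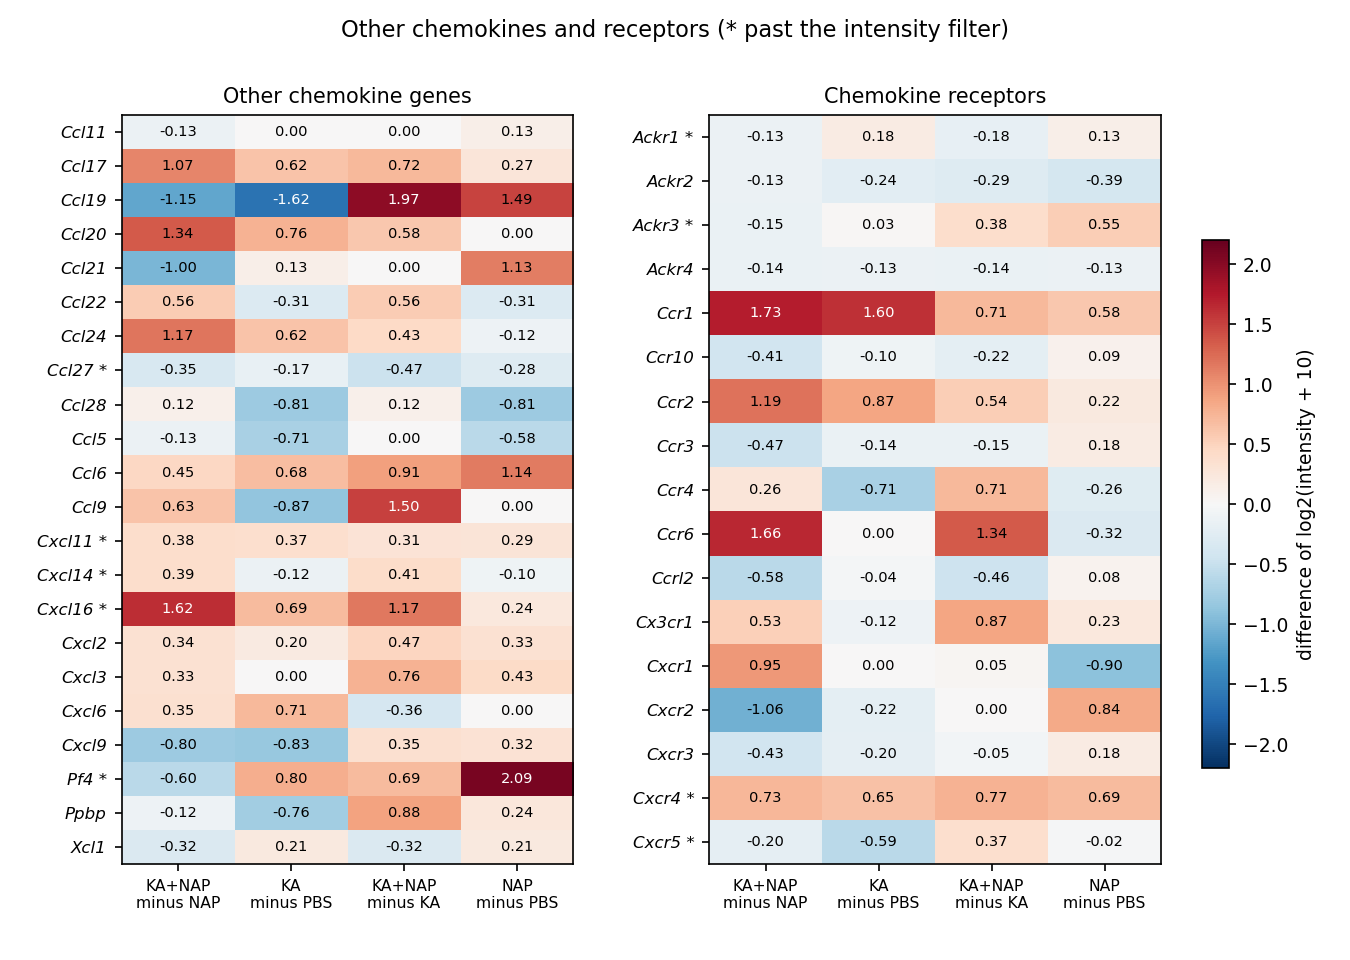
Differences of log2(intensity + 10) for 22 other chemokine genes (left) and 17 chemokine receptors (right) in the 4 comparisons, with the value printed in each cell and red for higher in the array named first. Asterisks mark genes past the intensity filter. Ccr1 is the 1 receptor above 1 in both comparisons of kainic acid, and Cxcl16 reaches 1.62 in KA+NAP minus NAP.

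Cytokines that induce chemokines were listed together with NF-kappaB pathway and target genes, 19 genes in all. The list holds receptors and adhesion genes too, so its counts are not counts of inducers alone. In KA minus PBS 5 of them reached 2-fold upwards and in KA+NAP minus NAP 7, with none downwards and medians of 0.69 and 0.74. The upward shares were 4.91% and 5.66% of genes past the filter, and 5.31% and 6.34% of all genes. Of those counted, Relb in the first comparison, Il1a in the second and Il6 in both lay below the filter. Icam1, an NF-kappaB target that lets leukocytes adhere to endothelium, had 168 with KA+NAP, 116 with KA, 35 with NAP and 45 with PBS, differences of 1.98 in KA+NAP minus NAP and 1.20 in KA minus PBS. The TNF receptor Tnfrsf1a differed by 1.22 and 1.19 in those comparisons, and the cytokine Il6 also reached 2-fold in both with no intensity above 30. The interleukin 1 receptor Il1r1 had 245 with KA+NAP, 249 with KA, 162 with NAP and 68 with PBS, differing by 0.57 and 1.73. Nfkb1 was higher by 0.94 and 0.92 and the endothelial adhesion gene Vcam1 differed by -0.73 and -0.44. Il1b and Tnf, the classical inducers, were within 2-fold, Il1b at 67, 50, 39 and 42 and Tnf at 34, 21, 17 and 16 on the KA+NAP, KA, NAP and PBS arrays. They were singled out after their values were seen.

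Proteases that shed or trim chemokines were represented by 7 genes. Mmp9, a gelatinase that cleaves several chemokines, was at least 2-fold higher in both comparisons, at 159 with KA+NAP, 233 with KA, 36 with NAP and 39 with PBS. Mmp14 was the only other gene past 2-fold, by 1.20 in KA+NAP minus NAP. The upward shares of all genes were 6.34% in KA+NAP minus NAP and 5.31% in KA minus PBS. The Cx3cl1 sheddases Adam17 and Adam10 differed by 0.64 and 0.41 in KA+NAP minus NAP and by 0.77 and 0.17 in KA minus PBS. Cathepsin S (Ctss), which also releases Cx3cl1, differed by 0.13 and -0.84. The medians of the 7 were 0.41 and 0.17.

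Genes listed as markers of monocytes and neutrophils also differed between arrays. In tissue RNA they do not tell recruited from resident cells. The 12 monocyte and neutrophil markers with a value summed to 8469 on the KA+NAP array, 4450 on the KA array, 5042 on the NAP array and 2520 on the PBS array. The lysozyme gene Lyz2 made up most of each sum, and the other 11 summed to 3177, 1693, 1559 and 1110, so the order of the KA and NAP arrays turned without it. Of the 12, 4 reached 2-fold upwards in KA minus PBS (Ly6c, S100a8, S100a9 and the endotoxin co-receptor Cd14) and 6 in KA+NAP minus NAP, those 4 with Ccr2 and Fcgr3a. The shares of genes past the filter were 4.91% and 5.66%. In KA minus PBS 9 of the 12 lay above 0. The others were Chi3l1, among the 3 brightest of the list, at -0.38, Csf3r at -0.04 and F10 at 0.00. S100a9, a calcium-binding protein abundant in neutrophils, had 337 with KA+NAP, 116 with KA, 59 with NAP and 13 with PBS. In NAP minus PBS, 4 of the 12 were at least 2-fold higher (S100a9, Cd14, Itgal and Lyz2) and the median was 0.44, with Ly6c at 0.20 and Ccr2 at 0.22. In KA+NAP minus KA, no chemokine of the 9 reached 2-fold. There 6 of the 12 were at least 2-fold higher, against 1.52% of genes past the filter and 2.6% of all genes. The median of the 12 was 0.97, and the microglia and macrophage markers below were higher by a similar amount.

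The 12 microglia and macrophage markers summed to 2844 with KA+NAP, 1465 with KA, 2503 with NAP and 2496 with PBS, and without P2ry12, the brightest, to 2476, 1233, 1730 and 1425. In KA minus PBS, the phagocyte genes Cd68, Ptprc and Tyrobp were at least 2-fold higher and P2ry12, Tmem119 and Gpr34, genes of resting microglia, at least 2-fold lower. The shares of all genes were 5.31% and 3.14%. In KA+NAP minus NAP, Cd68, Ptprc and Tyrobp were again higher, and P2ry12, at -1.05, was the 1 gene lower, against 6.34% and 3.05%. In KA+NAP minus KA, all 12 lay above 0 with a median of 0.91. There 4 were at least 2-fold higher (Aif1, Cd68, Mrc1 and Tyrobp), against 1.52% of genes past the filter and 2.6% of all genes. The 8 astrocyte markers summed to 36038, 32480, 33937 and 32478 on the KA+NAP, KA, NAP and PBS arrays, and without Gfap to 26262, 24333, 25872 and 26734. The intermediate filament gene Vim was the 1 gene at least 2-fold higher in both KA+NAP minus NAP and KA minus PBS, by 1.72 and 2.10. Aldh1l1 was the 1 gene at least 2-fold lower in KA+NAP minus NAP. It was at 188, 181, 386 and 369 on the KA+NAP, KA, NAP and PBS arrays, and differed by -0.99 in KA minus PBS. The medians of the 8 were -0.17 in KA+NAP minus NAP and -0.05 in KA minus PBS, and 3 lay above 0 in each. None of the monocyte, neutrophil, microglia or astrocyte markers was at 0 on any array. Their part in the chemokine differences was not tested.

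**Figure D4:**
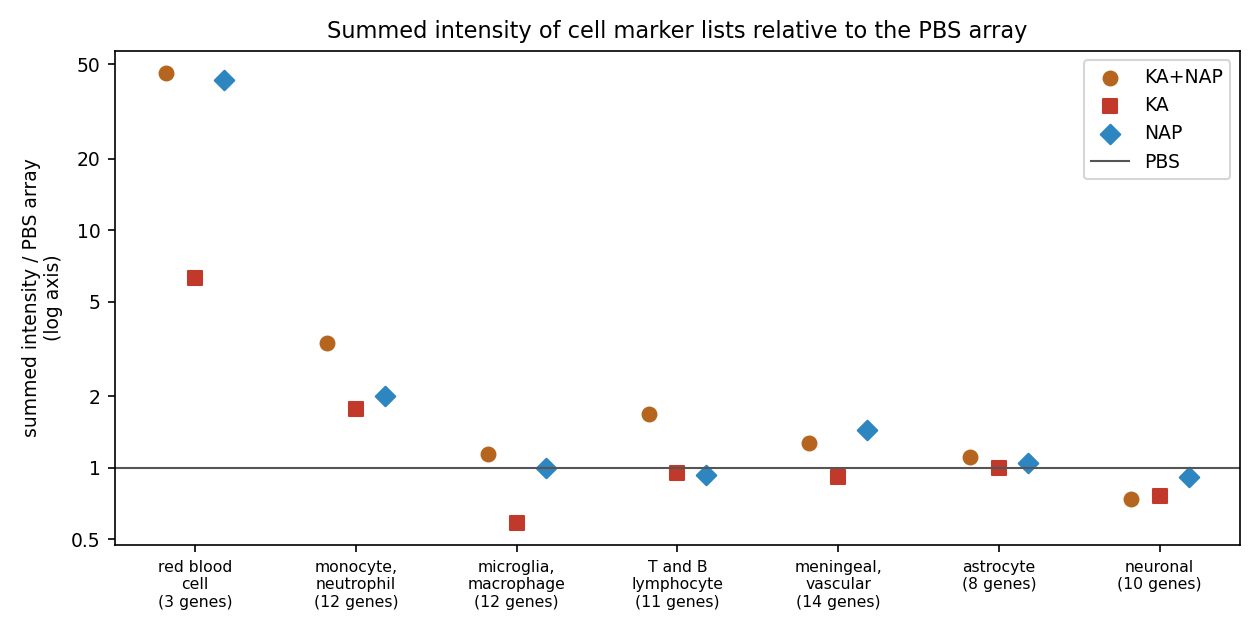
Summed intensity of 7 cell marker lists on the KA+NAP, KA and NAP arrays divided by that on the PBS array (log axis), with 1 point per array and the PBS array as the line at 1. The monocyte and neutrophil sum was 3.36, 1.77 and 2.00 times that of the PBS array with Lyz2, and without it the KA array (1693) lay above the NAP array (1559). The red blood cell sum, 45.8, 6.31 and 42.7 times, is nearly all Hbb over a PBS intensity of 5.

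The genes most like each chemokine were those past the filter with the lowest root mean square distance of centred log2(intensity + 10) over the 4 arrays. For Ccl2 these were the neuropeptide precursor gene Trh (distance 0.41), Ccl7 (0.47) and the small heat shock protein gene Hspb1 (0.73). For Ccl7 they were Trh (0.12), Ccl2 (0.47) and the beta tubulin gene Tubb6 (0.68). Trh had 1335 with KA+NAP, 1242 with KA, 29 with NAP and 11 with PBS. For Ccl3 they were Tax1bp3 (0.036), the transcription factor gene Elk3 (0.037) and Cavin3 (0.059), and for Ccl4 Syngr2 (0.042), Evi2b (0.047) and the thrombomodulin gene Thbd (0.053). For Cxcl10 they were Rassf1 (0.033), the chromatin remodeller gene Smarca5 (0.034) and Rab27b (0.037). For Cxcl1 they were Tmem117 (0.071), the secreted protease gene Klk6 (0.13) and the collagen prolyl hydroxylase subunit gene P4ha3 (0.14). For Cxcl12 they were Fxyd7, a regulator of the sodium pump (0.11), Vtn, vitronectin (0.13), and Tcerg1l (0.13). For Cxcl13 the nearest were distant, with Plac9 at 0.41, Siglec5 at 0.55 and the epoxide hydrolase gene Ephx2 at 0.58. For Cx3cl1 they were close, Ralyl at 0.021, Magee1 at 0.032 and Rbl2 at 0.033. With 4 arrays many genes can share a profile, and these lists describe likeness only.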

How the data were processed

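Per the labels' protocols, all RNA was extracted together with a column kit, and biotin-labelled cRNA was made from 500 ng of it by 2-cycle amplification, which favours 3′ ends. Per the submitters' processing notes, the authors computed the intensity of each probe set with MAS5. The MAS5 version and settings were not stated there, and no detection calls were used. The deposited intensity values were linear whole numbers up to 14484, with 1180 zeros. The 2% trimmed mean was 250 on each of the 4, so the arrays were used as scaled by the authors. Array medians were 58 to 65.

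Probe sets with 1 gene symbol in the platform annotation (20832) were named, with symbols updated to GRCr8 through the Entrez identifier, and 436 with several symbols were not. Differences of log2(deposited intensity + 10) were taken in Python 3.11.15 with pandas 2.3.3. The pseudocount is the 20th percentile of all values. The filter is the median of mean probe set intensity (62.75). The fold calls and the motif search were tested on simulated data with known answers.

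Besides the chemokines, named genes were drawn from members of 12 lists that were at least 2-fold apart in one direction in both KA minus PBS and KA+NAP minus NAP or among the 3 brightest of a list, the receptors of the chemokines, members of counts of a list, and the 3 genes most like a chemokine. Other genes were chosen after their values were seen: Ccl11, Cxcl2, Cxcl3, Cxcl9 and Cxcl11 for their position beside a chemokine, Il1b, Tnf, Ifng and Ifnb1 for their role, Grik4 as a check of the tissue, and Cd3e, Cd4, Cd79b and Ms4a1 as lymphocyte genes. Slc4a1, Csf3r, F10, Pecam1, Acta2, Lum and Pdgfrb were also chosen then, as genes that did not go with their lists. The chemokines and lists were chosen with earlier results of these data known. List counts and medians cover every list gene with a value, and lists share some genes.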

Additional observations from a re-analysis of the deposited data

Results flagged for a closer look

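For 4 of the 9 chemokines the NAP array lay above the PBS array while the KA+NAP array lay below the KA array, so that the difference with the peptide had opposite directions with and without kainic acid. Ccl2 differed by -0.13 in KA+NAP minus KA and by 1.93 in NAP minus PBS. Ccl7 differed by -0.059 and 0.63 in these comparisons. Cxcl12, by its brightest probe set, differed by -0.12 and 0.62. Its second brightest probe set differed by 0.61 and 0.13 and the mean of its probe sets by 0.15 and 0.47, so for Cxcl12 the opposite directions depend on the probe set, and without it 3 of the 9 remain. Cx3cl1 differed by -0.21 and 0.14. Each value is a difference of single arrays, and the contrast between the directions was not tested. Only the Ccl2 difference in NAP minus PBS exceeds 2-fold. The difference of kainic acid had the same direction with and without NAP for all 9 chemokines. The share of all genes with the same direction was not counted. A stricter pattern, no overlap between arrays with and without kainic acid, was shown upwards by 32.3% and downwards by 28.7% of genes past the filter. The shared direction by itself therefore sets none of the 9 apart.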

How the results depend on the processing

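Of 234 chemokine differences recomputed under the other pseudocounts, scalings, probe set choices and comparison arrays, 222 stayed on the same side of 2-fold, 7 fell below it and 5 passed it, and none beyond 2-fold changed direction. Every chemokine but Cxcl12 has 1 probe set, so for them the probe set choices had to return the main value. The 222 include those fixed agreements. Counts that moved by over 1.5 times were few. With a pseudocount of 1, 1 chemokine was at least 2-fold higher in KA+NAP minus KA (Cxcl13, by 1.26) in place of 0. The number at least 2-fold lower in KA minus PBS was 1 in place of 2 with a pseudocount of 50 (without Cxcl13), with the mean of all probe sets of a gene, and with the dimmest probe set (each without Cxcl12, at -0.89 and -0.77). With the PBS array in place of the NAP array, the number lower in KA+NAP minus NAP was also 1. Against the NAP array, Ccl3 on the KA array was higher by 0.93, short of 2-fold. The share of all genes at least 2-fold apart in KA+NAP minus KA was 2.12% past the filter, 3.97% with no filter and 1.04% above the 75th percentile, and in NAP minus PBS it was 1.3%, 3.22% and 0.78%. Leaving out the brightest gene of each marker list was an alternative chosen after seeing the data, with its sums beside the lists. Scaling to a common median moved the median over genes by at most 0.09. The dim probe sets of Ccl3, Ccl4, Cxcl1 and Cxcl10 limit what can be read from their differences, and detection calls were not used. No paired analysis was possible because each group has 1 array and the labels give no replicate numbers.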

Other observations

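Lymphocyte genes, targets of Cxcl10 and Cxcl13, were dim on all arrays. The 11 T and B lymphocyte markers with a value summed to 297 on the KA+NAP array, 167 on the KA array, 165 on the NAP array and 176 on the PBS array, and 1 of them passed the filter. Cd8a, a co-receptor of cytotoxic T cells, had an intensity of 72 on the KA+NAP array, 15 on the KA array, 2 on the NAP array and 1 on the PBS array. It was higher by 2.77 in KA+NAP minus NAP and 1.18 in KA minus PBS. The T-cell receptor subunit gene Cd3e was at 39, 2, 11 and 16 on the KA+NAP, KA, NAP and PBS arrays. It too was highest on the KA+NAP array, but its order over the other arrays was not that of Cd8a. Cd8b was at 21, 1, 2 and 4. In KA+NAP minus NAP, 3 of the 11 were at least 2-fold higher (Cd3e, Cd8a and Cd8b) and 1 lower (Cd4), against 6.34% and 3.05% of all genes. The same held in KA+NAP minus KA, against 2.6% and 1.36%. In KA minus PBS, 2 were higher (Cd8a and Cd2) and 1 lower (Cd3e), against 5.31% and 3.14%. The helper T-cell co-receptor Cd4 was at 3, 23, 19 and 42 on the KA+NAP, KA, NAP and PBS arrays, and the T-cell kinase gene Lck at 71, 66, 66 and 63. The B-cell genes with a value, Cd79b and Ms4a1, did not exceed 20 on any array.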
